A study of Canis lupus familiaris with 6 samples.

Results

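YAP1, its paralogue WWTR1 (also called TAZ), the TEAD factors they bind, the LATS kinases that restrain them and genes they are known to activate were read from canine arrays of transformed kidney epithelial cells. The members were the non-control probes whose gene name in the array design equalled 1 of 10 listed symbols: YAP1, WWTR1, TEAD1, TEAD4, LATS1, LATS2, CTGF, CYR61, ANKRD1 and AMOTL2. Of these, 9 had a probe, which gave 17 probes, with 1 to 3 per gene, among 13460 distinct symbols on the array. CTGF had no probe under that name and is described from 2 probes that the design describes as connective tissue growth factor.

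The samples were of MDCK, an epithelial line from dog kidney, and the cells constitutively expressed mCherry-tagged β-catenin Δ131, a stabilised β-catenin that lacks its N-terminus (β-cat ΔN). They also carried GFP-tagged RasV12, an active Ras oncoprotein that tetracycline switches on. In single culture (n = 3 arrays), β-cat ΔN/RasV12 cells were grown alone on collagen. In mix culture (n = 3 arrays), they were grown with 10 β-cat ΔN cells for each RasV12 cell. Both groups received tetracycline for 24 h, after which the GFP-positive fraction was collected by flow cytometry and its RNA was hybridised to 1-colour arrays. β-cat ΔN was present in both groups and in the surrounding cells, so that by design the groups differed in the neighbours. The comparison holds no RasV12 cells without β-cat ΔN and no cells without RasV12. The purity of the sorted fraction is not given in the sources used here. The sources used here do not say whether a line was 1 clone or whether replicates came from separate cultures, so p-values measure only the spread between these samples.

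In the Hippo pathway, the kinases STK3 and STK4 activate LATS1 and LATS2, which phosphorylate YAP and TAZ and keep them in the cytoplasm. When the kinases are inactive, YAP and TAZ enter the nucleus, bind TEAD1 to TEAD4 on DNA and raise transcription of genes such as CTGF, CYR61, ANKRD1 and AMOTL2. The pathway responds to cell density, cell contacts and tension of the cytoskeleton, and in cultured epithelia YAP is known to leave the nucleus as cells become dense. Much of this control acts on the proteins, which these arrays did not measure.

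Probes of 60 bases carried the measurements below, and 6 of them are printed, chosen by features of their sequence and not by their values. They are written 5′ to 3′ as in the scanner files, with positions on CanFam3.1. A YAP1 probe that crosses an exon junction lay at chr5:29394977-29396358 on the minus strand. The TEAD1 probe (chr21:35928385-35928444, plus strand) and 1 of the 2 TEAD4 probes (chr27:41749077-41749136, minus strand) covered related stretches of the 2 transcripts. Over the 35 bases that they share, 25 were identical (71.4%), and capitals mark these bases. The second TEAD4 probe (chr27:41760576-41763049, minus strand) crossed an exon junction elsewhere in the gene. The LATS2 probe (chr25:17167885-17167944, plus strand) and the CYR61 probe (chr6:62443960-62444019, minus strand) ended with a stop codon, which is in capitals. Read in the frame of that codon, neither held an earlier stop.
YAP1 A_11_P106351: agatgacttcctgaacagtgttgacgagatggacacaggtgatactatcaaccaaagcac
TEAD1 A_11_P0000029320: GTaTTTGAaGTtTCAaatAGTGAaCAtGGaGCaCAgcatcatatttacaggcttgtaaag
TEAD4 A_11_P0000030468: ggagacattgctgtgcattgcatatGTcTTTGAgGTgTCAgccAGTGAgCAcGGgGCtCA
TEAD4 A_11_P190568: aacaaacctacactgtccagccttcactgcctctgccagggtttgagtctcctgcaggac
LATS2 A_11_P070131: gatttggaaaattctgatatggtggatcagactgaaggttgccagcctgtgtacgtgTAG
CYR61 A_11_P098191: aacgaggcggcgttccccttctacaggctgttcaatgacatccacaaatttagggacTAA

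Each array held 43803 non-control spots, of which between 61.11% and 65.66% were well above background. Levels are given as normalised log2 signal, the log2 of the background-subtracted intensity minus the array's own 75th percentile, so that a value of 0 is that percentile. Changes are mix culture minus single culture on this scale. Replicate 1 of each group lay on slide 1, and the other 4 arrays lay on slide 2. With the culture in the model, 47.2% of the tested probes differed between the slides. Changes within each slide therefore stand beside several pooled ones, and a second fit holds the slide as a block, that is, as a term of the model that removes its mean difference. The kidney epithelial markers were present, with 8 of 8 on the array well above background on all 6 arrays. Their summed level was 663 to 828 times the array's 75th percentile in single culture and 464 to 658 times in mix culture. PTPRC, the defining leukocyte marker, was above background on no array, and 3 of 7 fibroblast markers were above background on none.

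No member was called in the fit without a block, and 1 TEAD4 probe was called lower in mix culture once the slide was held as a block. A probe was called when its limma p-value, adjusted by the Benjamini-Hochberg method over the whole array, was under 0.05. Of the 17 probes, 16 probes of 8 genes were well above background on all 6 arrays and were tested. limma without a block called 0 of them, where 0.871% of all tested probes were called. None reached an unadjusted p under 0.05, which 8.73% of all tested probes did, and the lowest unadjusted p was 0.0862 (limma). Adjusted p-values ran from 0.688 to 0.998. With the slide block, 1 of the 16 was called (6.25%), against 7.22% of all tested probes, and 3.23% of all were called lower. With the replicate number as the block, the count was also 1, against 5.29% called and 2.04% called lower among all. From slide 2 alone limma called 0, against 3.7%, and 2 had an unadjusted p under 0.05, both of them TEAD4 probes, where 17.5% of all probes had one. The unpaired test named in the study's methods called 0 after Benjamini-Hochberg adjustment, but it called only 8 probes on the whole array. By that test 2 of the 16 had an unadjusted p under 0.05, a WWTR1 probe (A_11_P188663) and a LATS2 probe (A_11_P070131), against 9.75% of all probes. Leaving out any 1 array without a block left the count at 0.

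The changes of the member probes were small, and as many were fitted higher as lower. They ran from -0.59 to 0.30, 8 were above 0 and 8 below, and their median was 0.048, beside a median of -0.051 over all tested probes. All 5 coactivator probes (YAP1 and WWTR1) were fitted higher, by 0.11 to 0.25, and all 3 TEAD probes were fitted lower, by values from -0.59 to -0.21. On slide 1, however, the YAP1 probes changed by -0.009 and -0.18 and the WWTR1 probe A_11_P168628 by -0.09. The 5 LATS probes were split, with 2 higher and 3 lower. The groups did not overlap for 3 of the 16 (18.8%), a WWTR1, a TEAD1 and a LATS2 probe, against 16.5% of all tested probes. The change had the same sign on both slides for 11 of the 16 (68.8%), against 70.7% of all.

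**Figure D1:**
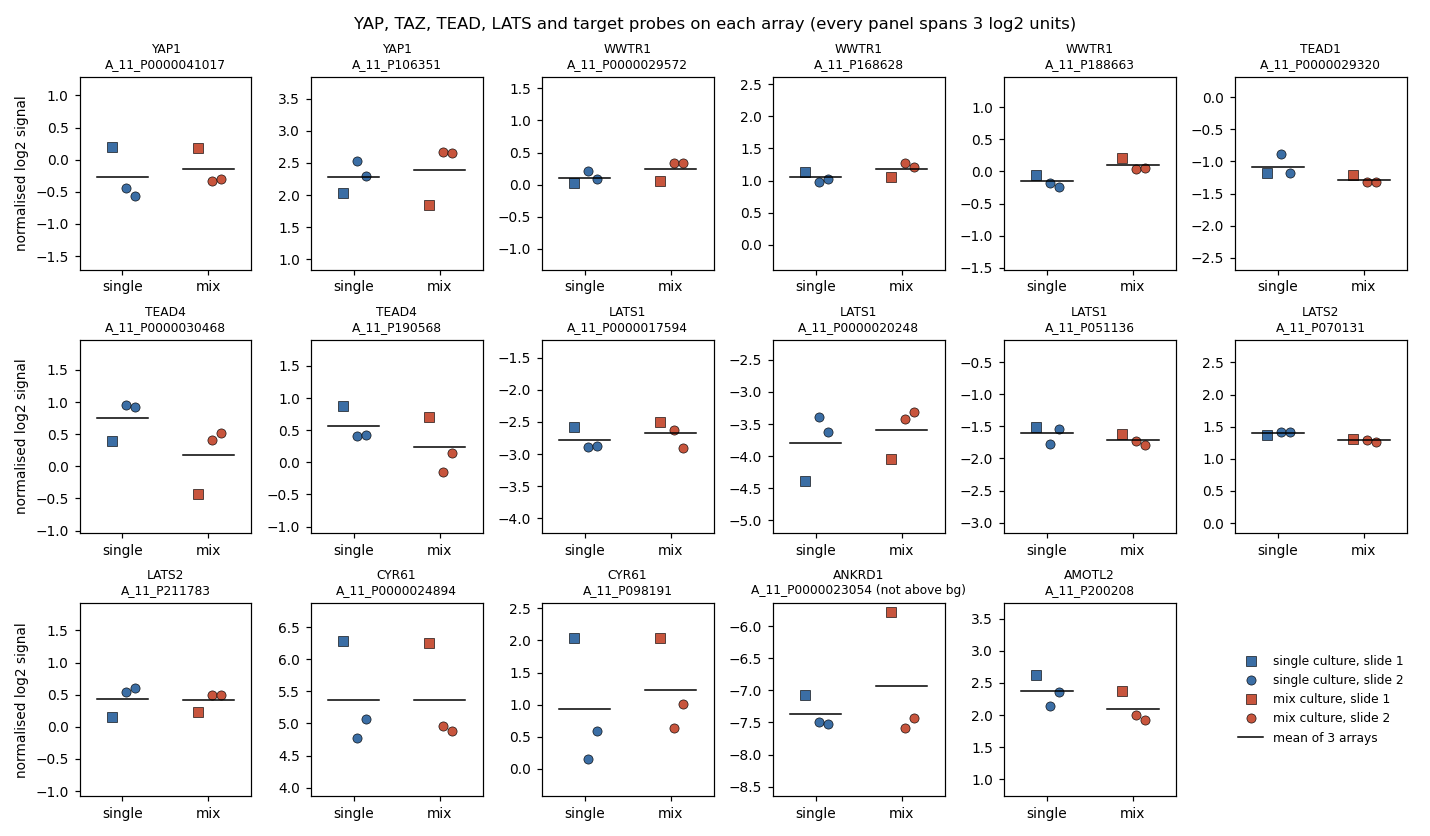
Normalised log2 signal (y axis, 0 is the array's 75th percentile) of the 17 member probes on each array, by culture (x axis), with squares for slide 1, circles for slide 2 and lines for the mean of 3 arrays. Every panel spans the same 3 log2 units. In most panels the squares stand apart from the circles by more than the single culture mean stands from the mix culture mean, as for CYR61, and the ANKRD1 probe was above background on no array.

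YAP1 encodes the coactivator YAP, and its transcript was measured by 2 probes. The exon junction probe printed above read 2.03, 2.54 and 2.30 in single culture and 1.85, 2.66 and 2.66 in mix culture, for replicates 1, 2 and 3. The slide 1 array was the lowest of its group in both cultures, and the groups overlapped. The change was 0.11 (SE 0.27, limma adjusted p = 0.975), and it was -0.18 on slide 1 and 0.25 on slide 2. The second probe (chr5:29391244-29391303, minus strand) read 0.19, -0.44 and -0.56 in single culture and 0.18, -0.34 and -0.31 in mix culture. Here the slide 1 arrays were the highest of their group, and the change was 0.12 (SE 0.25, limma adjusted p = 0.972). On slide 2 both mix culture arrays lay above both single culture arrays for each probe. On slide 1 the mix culture array was the lower one for both, though only by 0.009 for the second probe. With the slide block, the 95% intervals of the changes were -0.19 to 0.40 and -0.13 to 0.36.

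WWTR1, which encodes TAZ, was measured by 3 probes on the minus strand of chromosome 23, and all were fitted slightly higher in mix culture. The probe at chr23:44279289-44279348 read -0.05, -0.17 and -0.24 in single culture and 0.22, 0.03 and 0.05 in mix culture. Every mix culture array lay above every single culture array. The change was 0.25 (SE 0.15, 95% interval -0.10 to 0.60, limma adjusted p = 0.764), and it was about as large on slide 1 (0.26) as on slide 2 (0.25). It was not called with the slide block (adjusted p = 0.157) and was called in the authors' own log2 table, which is centred within each slide (0.25, limma adjusted p = 0.0426). Since the centring was not part of the model fitted to that table, its p-values are too small. The other 2 probes, at chr23:44280973-44281032 and chr23:44280505-44280564, changed by 0.13 (SE 0.16) and 0.13 (SE 0.15), with adjusted p = 0.929 and 0.928 by limma. Their groups overlapped, although on slide 2 the mix culture arrays were the higher ones for both. On slide 1 their changes were 0.03 and -0.09.

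TEAD4, one of the DNA-binding partners of YAP and TAZ, gave the widest difference among the members. Its probe with the stretch shared with TEAD1 read 0.40, 0.96 and 0.92 in single culture and -0.43, 0.41 and 0.52 in mix culture. The slide 1 array was the lowest of its group in both cultures. On each slide the mix culture arrays lay below the single culture arrays, while over both slides the groups overlapped. The mean went from 0.76 ± 0.31 to 0.17 ± 0.52 (SD, n = 3 arrays each), a change of -0.59 (SE 0.30, 95% interval -1.29 to 0.11), and limma without a block did not call it (adjusted p = 0.688). The change was -0.83 on slide 1 and -0.47 on slide 2. With the slide block its SE was 0.12, its 95% interval was -0.86 to -0.32, and it was called (limma adjusted p = 0.0237), as it was with the replicate block (adjusted p = 0.0463). A change of this size is a level 1.51 times as high in single culture. From slide 2 alone, with 2 arrays a group, it was not called (adjusted p = 0.101).

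The other TEAD4 probes were fitted lower as well, and none was called. The exon junction probe printed above read 0.88, 0.40 and 0.43 in single culture and 0.71, -0.15 and 0.14 in mix culture. Here the slide 1 arrays were the highest of their group, the opposite of the first probe. Its change was -0.33 (SE 0.26, limma adjusted p = 0.846), with -0.17 on slide 1, -0.42 on slide 2 and an adjusted p = 0.137 with the slide block. A further probe that the design describes as TEAD4, but that carries another name and so is no member (A_11_P152918, chr27:41744104-41744163, minus strand), changed by -0.25 (SE 0.22, limma adjusted p = 0.863, or 0.175 with the slide block). All 3 TEAD4 probes were lower in mix culture on both slides. In bulk RNA, less transcript per cell and fewer cells with the transcript cannot be told apart. The summed level of the kidney epithelial markers was also lower in mix culture, without overlap but narrowly so. The lowest sum in single culture was 663 and the highest in mix culture was 658. Among single probes, the groups did not overlap for 16.5% of all tested. The sum weighs bright probes most, and the keratin genes KRT18 and KRT19 were the brightest. They changed by -0.40 (limma adjusted p = 0.7) and -0.32 (limma adjusted p = 0.908), and for each the groups overlapped. For KRT18 the change was -0.87 on slide 1 and -0.16 on slide 2. Among the epithelial markers, all 3 probes of CDH1, which encodes E-cadherin, were fitted lower by values from -0.60 to -0.46. They passed the threshold with the slide block (limma adjusted p = 0.0414 to 0.0468), though not with the replicate block (adjusted p = 0.0544 to 0.0784). By the brightest probe of each gene, 1 of the 8 markers was called with the slide block (12.5%), against 7.55% of all genes. Of the 8 marker genes tested, 1 was fitted higher and 7 lower, beside 4087 higher and 5789 lower over all genes. The median change of the list was -0.12, PAX8, a transcription factor of kidney epithelium, was fitted higher (0.47, SE 0.29, limma adjusted p = 0.776, or 0.0633 with the slide block), and EPCAM, an epithelial adhesion molecule, changed by -0.02 (SE 0.23). The part of these shifts in the TEAD4 values was not tested.

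TEAD1 encodes a related DNA-binding partner. Its probe read -1.19, -0.89 and -1.17 in single culture and -1.22, -1.32 and -1.33 in mix culture. The mix culture arrays were the 3 lowest, though narrowly so on slide 1. The change was -0.21 (SE 0.16, 95% interval -0.57 to 0.16, limma adjusted p = 0.839). It was -0.03 on slide 1 and -0.29 on slide 2, and it was not called with the slide block (adjusted p = 0.316). A second probe described as TEAD1 (A_11_P125406, chr21:35929426-35929485, plus strand), which is no member, changed by -0.005 (SE 0.18, limma adjusted p = 0.997).

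**Figure D2:**
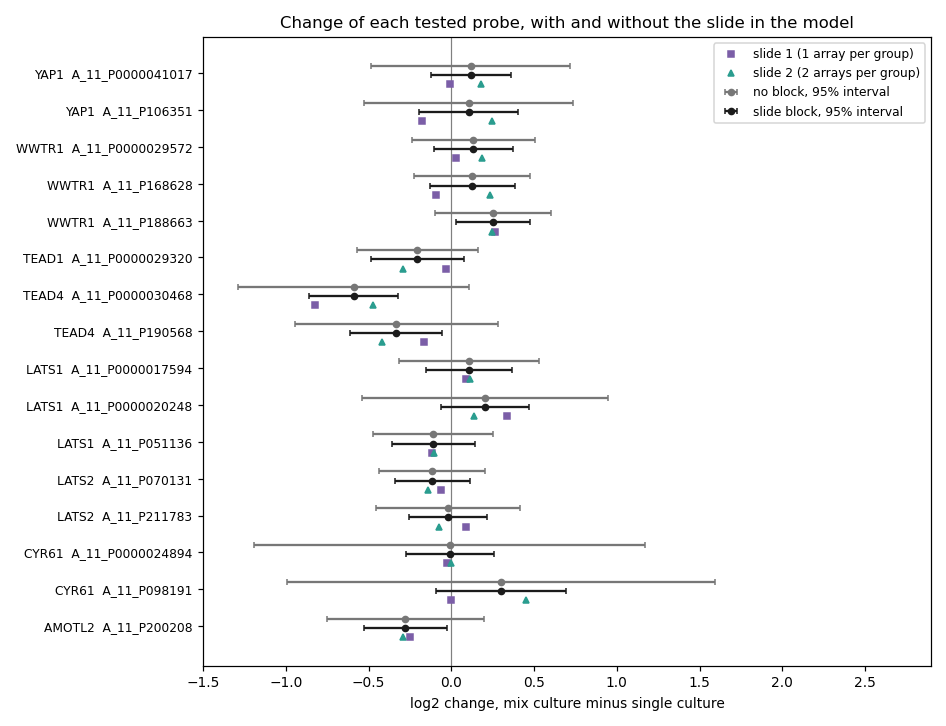
Change in log2 signal (x axis, mix culture minus single culture) of each of the 16 tested member probes (y axis), with its 95% interval without a block (grey) and with the slide block (black), and the differences on slide 1 (purple squares) and slide 2 (green triangles). The black intervals are shorter, and that of the TEAD4 probe A_11_P0000030468, from -0.86 to -0.32, lies farthest from 0.

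LATS1 and LATS2 encode the kinases that phosphorylate YAP and TAZ, and no probe of either was called under any setting tried. LATS1 was measured by 3 probes on the minus strand of chromosome 1, which changed by 0.11 (SE 0.18), 0.20 (SE 0.32) and -0.11 (SE 0.15), with limma adjusted p-values from 0.946 to 0.957. The probe at chr1:40446666-40446725 read -4.38, -3.39 and -3.62 in single culture and -4.05, -3.42 and -3.31 in mix culture. Its slide 1 arrays were the 2 lowest, and the groups overlapped on slide 2. The LATS2 probe printed above had the smallest SDs among the members (0.027 and 0.026). It read 1.37, 1.42 and 1.42 in single culture and 1.31, 1.30 and 1.26 in mix culture, so that the mix culture arrays were the 3 lowest. The difference was small, -0.12 (SE 0.14, 95% interval -0.44 to 0.21, limma adjusted p = 0.929, or 0.478 with the slide block). The second LATS2 probe at chr25:17167679-17167738, changed by -0.02 (SE 0.19) and had overlapping groups.

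Of the target genes, CYR61 and AMOTL2 were measured and CTGF and ANKRD1 were at or near background. CYR61 (CCN1 in current nomenclature) encodes a secreted matrix protein that is a direct target of YAP and TEAD. The probe at chr6:62443620-62443679 on the minus strand read 6.28, 4.77 and 5.07 in single culture and 6.26, 4.96 and 4.88 in mix culture. Both slide 1 arrays stood above all slide 2 arrays, and within a slide the cultures lay close together. The change was -0.01 with an SE of 0.50 without a block and of 0.12 with the slide block, where its 95% interval was -0.28 to 0.26 (limma adjusted p = 0.965). The probe that ends with the stop codon read 2.04, 0.15 and 0.59 in single culture and 2.04, 0.64 and 1.01 in mix culture. Its change was 0.30 (SE 0.55, limma adjusted p = 0.961), which was -0.001 on slide 1 and 0.45 on slide 2, and it was not called with the slide block (adjusted p = 0.296).

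AMOTL2 encodes a junctional scaffold protein that is a target of YAP and also holds it in the cytoplasm. Its probe (chr23:31147466-31147525, minus strand) read 2.62, 2.14 and 2.37 in single culture and 2.37, 1.996 and 1.92 in mix culture. On each slide the mix culture arrays were the lower ones, and over both slides the groups overlapped at 2.37. The change was -0.28 (SE 0.20, limma adjusted p = 0.821), with -0.25 on slide 1 and -0.29 on slide 2. With the slide block its 95% interval was -0.53 to -0.03, and it was not called (adjusted p = 0.159).

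ANKRD1 encodes an ankyrin repeat protein that is widely used as a YAP reporter gene. Its member probe (chr28:5569891-5569950, minus strand) was above background on 0 of 6 arrays and was not tested. It read -7.07, -7.49 and -7.53 in single culture and -5.78, -7.59 and -7.43 in mix culture, so that 1 array, mix culture replicate 1, stood above the rest. A probe described as ANKRD1 under another name (A_11_P123656, chr28:5569256-5569315, minus strand) was above background on 1 of 3 single culture arrays and 2 of 3 mix culture arrays. It read -4.72, -6.51 and -5.44 in single culture and -3.77, -4.20 and -5.12 in mix culture, with overlap. With no filter on dim probes, its change was 1.20 (SE 0.51, limma adjusted p = 0.823). CTGF (CCN2) encodes connective tissue growth factor, and both of its probes were above background on 0 of 6 arrays. They lay at chr1:25509959-25510018 and chr1:25510769-25510828 on the plus strand and read between -8.06 and -6.29. Such readings are bounds set by the background and not levels.

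For most of the tested member probes, as over the whole array, the slide difference was larger than the culture difference. The difference between slide 2 and slide 1 with the culture in the model was larger in size than the culture difference for 12 of the 16 tested member probes, and this held for 69.5% of all tested probes. The median size of the slide difference was 0.37 over the members and 0.35 over all tested probes, while that of the culture difference was 0.13 over the members. The 2 CYR61 probes had slide differences of -1.35 and -1.44, higher on slide 1. The 2 TEAD4 probes were moved in opposite directions, by 0.72 and -0.59, and so were the 2 YAP1 probes, by 0.60 and -0.60. The slides also differed in the scanner resolution and in the version of the image software, and these cannot be told apart from other differences between the slides.

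**Figure D3:**
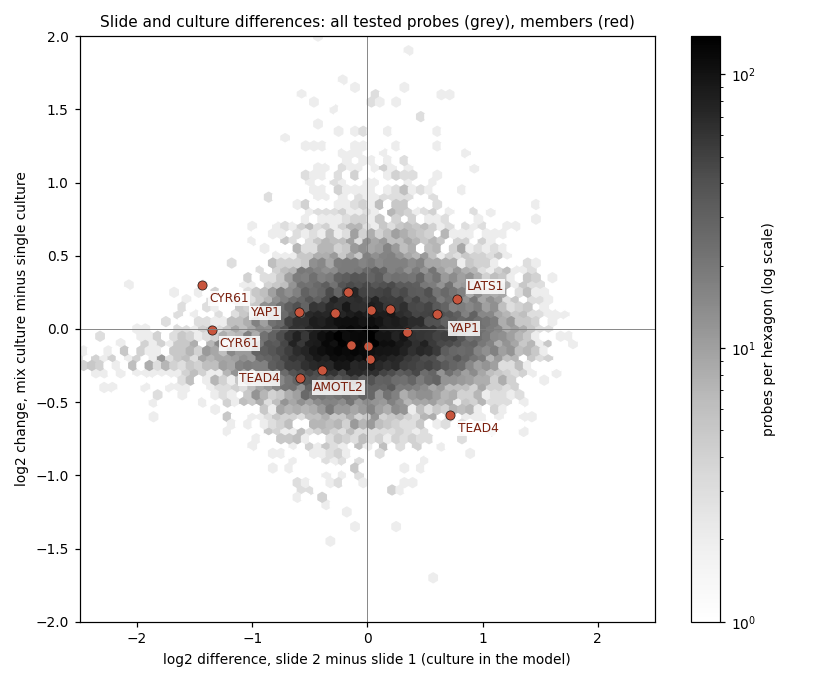
Difference between slides (x axis, log2, slide 2 minus slide 1 with the culture in the model) against the culture change (y axis, log2, mix minus single culture), with all tested probes as grey hexagons by number and the 16 tested member probes in red. Of 26623 probes, 240 lie outside the axes. The members spread from -1.44 to 0.78 along the slide axis and from -0.59 to 0.30 along the culture axis.

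The size of change that these arrays could have missed follows from the intervals. Without a block, the 95% interval lay within 1 log2 unit of 0, a 2-fold change, for 13 of the 16 probes, and SEs ran from 0.14 to 0.55. With the slide block, all 16 intervals lay within a 2-fold change and 13 within a 1.5-fold change, and SEs ran from 0.098 to 0.17. The 13 that met the 2-fold limit without a block left out 1 TEAD4 probe and both CYR61 probes.

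Other genes of the pathway were described by 4 lists, with 1 probe for each symbol, the brightest. limma without a block called 0 genes in each, where 0.932% of the 9876 genes tested were called. At an unadjusted p under 0.05, 2 genes of the first list and 1 of each other list passed (15.4%, 11.1%, 10% and 8.33% of those tested), beside 8.61% of all genes. The slide block gave 3 calls over the lists. By list, in the same order, 15.4%, 0%, 10% and 0% of the genes tested were called, against 7.55% of all genes. The first list held kinases and scaffolds upstream of LATS. Of its 16 genes, 13 were tested, 6 were fitted higher and 7 lower, and the median was -0.006, beside -0.054 over all genes. Its calls with the slide block were STK4 and DLG5 (15.4%).

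STK4 encodes a kinase that activates LATS1 and LATS2. Its brightest probe (A_11_P067711, chr24:32403386-32403445, plus strand) read 1.90, 2.01 and 2.07 in single culture and 1.41, 1.56 and 1.44 in mix culture. The groups did not overlap, and the gap was similar on slide 1 (-0.49) and slide 2 (-0.54). The change was -0.52 (SE 0.15, limma adjusted p = 0.268), and it was called with the slide block (adjusted p = 0.022) and with the replicate block (adjusted p = 0.0469). Its second probe changed by -0.51 (SE 0.19) and was called with the slide block (adjusted p = 0.0276) and not with the replicate block (adjusted p = 0.0524).

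DLG5 encodes a scaffold protein of cell junctions and polarity. Its probe (A_11_P0000032318, chr4:27688920-27688979, minus strand) read 1.59, 2.22 and 1.97 in single culture and 2.47, 2.68 and 2.63 in mix culture. Every mix culture array was above every single culture array. The change was 0.66 (SE 0.20, limma adjusted p = 0.325), with 0.88 on slide 1 and 0.56 on slide 2. It was called with the slide block (adjusted p = 0.0188) and the replicate block (adjusted p = 0.0304). From slide 2 alone neither DLG5 (adjusted p = 0.0871) nor STK4 (0.0685 and 0.0979 for its 2 probes) was called.

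The second list held further TEADs and regulators of YAP and TEAD, of which 9 of 15 were tested. All 9 were fitted lower, by values from -0.47 to -0.03 with a median of -0.19. Over all genes the median was -0.054, and 5789 of 9876 were fitted lower. limma called 0 of the 9 with or without the slide block. The gene with an unadjusted p under 0.05 without a block, named after its values were seen, was AMOTL1, an angiomotin family member that binds YAP. It read -1.23, -1.298 and -1.12 in single culture and -1.59, -1.99 and -1.48 in mix culture, without overlap. Its change was -0.47 (SE 0.18, limma adjusted p = 0.52, or 0.102 with the slide block). TEAD3 belongs to this list but had no probe under that name, so it is not among the 9. A probe described as TEAD3 was fitted higher, by 0.06 (SE 0.22, limma adjusted p = 0.981).

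The third list held other YAP target genes, of which 10 of 17 were tested, with 2 fitted higher and 8 lower and a median of -0.13. NUAK2, which encodes a kinase of the AMPK family and is a target of YAP, was called lower with the slide block (1 of 10, 10%). Its brightest probe (A_11_P204043, chr38:1798744-1798803, minus strand) read 0.08, 0.21 and 0.30 in single culture and -1.18, -0.74 and -0.65 in mix culture. The groups were wide apart on both slides, with differences of -1.25 and -0.95. The change was -1.05 (SE 0.19), a level 2.07 times as high in single culture, with a limma adjusted p = 0.0711 without a block, 0.00168 with the slide block and 0.00422 with the replicate block. It was called from slide 2 alone as well (adjusted p = 0.00895). A second probe, at chr38:1799037-1799096, read -0.92, -0.86 and -0.75 in single culture and -2.07, -1.75 and -1.61 in mix culture, a change of -0.97 (SE 0.17) that was called with the slide block (limma adjusted p = 0.00258). The third probe of the gene changed by -0.75 (SE 0.25) with non-overlapping groups and was not called with the slide block (limma adjusted p = 0.052).

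The fourth list held targets of SRF and its MRTF cofactors, which respond to actin and share many genes with YAP. Of 15 genes, 12 were tested, 3 were fitted higher and 9 lower, with a median of -0.16 and a range of -0.37 to 0.04. limma called 0 with or without the slide block. At an unadjusted p under 0.05, 3 passed with the slide block (MYH9, FLNA and FHL2, 25%) and 1 without a block (MYH9, 8.33%), all named after their values were seen, beside 26.1% and 8.61% of all genes, respectively. Over all genes, 4087 were fitted higher and 5789 lower.

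**Figure D4:**
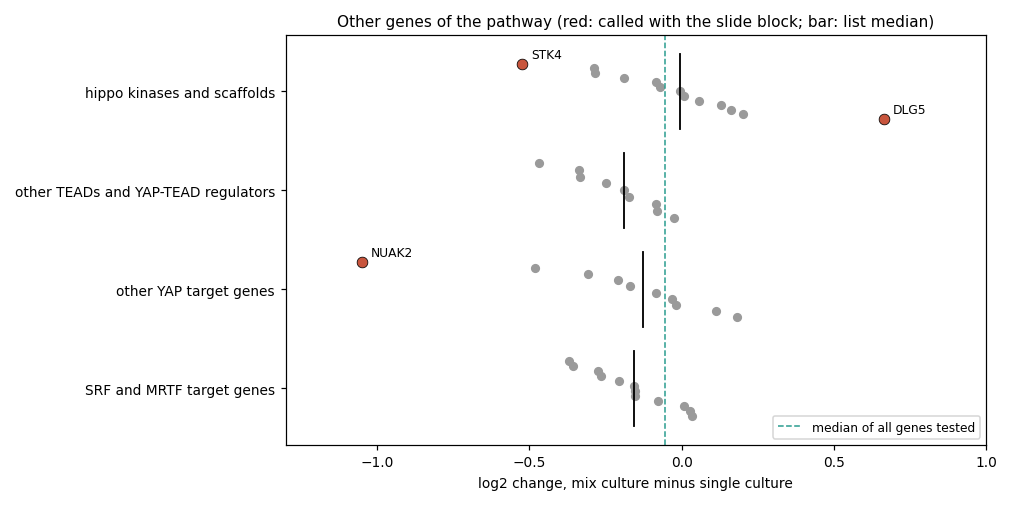
Change in log2 signal (x axis, mix culture minus single culture) of each tested gene in 4 lists (y axis), with black bars for list medians, a dashed line for the median of all genes tested (-0.054) and red points for genes called with the slide block. NUAK2 at -1.05, STK4 at -0.52 and DLG5 at 0.66 are the called genes, and the tested genes of the second list all lie below 0.

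The transcripts of the introduced proteins were read from the dog genes, and the sources used here do not say whether these probes match the introduced sequences. HRAS changed by -0.63 (SE 0.28, limma adjusted p = 0.608, or 0.0648 with the slide block). The 4 CTNNB1 probes changed by 0.15 to 0.27 (limma adjusted p = 0.85 to 0.925). The part of either in the values of YAP, TAZ and TEAD was not tested.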

How the data were processed

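Total RNA of sorted GFP-positive cells was labelled with Cy3 and hybridised to Agilent canine arrays (3 single culture, 3 mix culture, grouped by sample title). The authors deposited 1 scanner file per array with spot intensity on a linear scale, from which Feature Extraction had already subtracted the background. Per the file headers, version 11.5.1.1 was used for slide 1, which held replicate 1 of each group, and version 12.1.1.1 for slide 2. A log2 table of the same arrays was deposited as well, with its steps unstated. Every column had a median of 0, the slide 1 columns summed to 0 within 0.011 for 100% of probes, and the median over the 4 slide 2 columns was 0 within 0.011 for 100%, so that probes were centred within a slide and differences between slides are lost. Its direction matched the scanner values. Its columns for mix culture replicates 2 and 3 matched each other's scanner file (correlations of 0.999 and 0.993) better than their own (0.457 and 0.459), which leaves group means unaffected.

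Here log2 of the processed signal minus the array's 75th percentile was used, after removal of control spots and flagged outliers (5 to 9 spots an array) and averaging of spots of 1 probe. No spot was saturated. The 26623 probes that were well above background throughout single culture or throughout mix culture were tested two-sided without a block (limma 3.58.1, R 4.3.3, moderated by eBayes). The fit was tested on simulated data with known changes. These data held no difference between slides, so that the test does not cover the fit without a block on the real arrays. The number of arrays (6) limits the precision.

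The members and gene lists were chosen with earlier results of these data known. Named were every member probe, list genes called without a block, up to 3 genes per list with the largest change among those called with the slide block, HRAS and CTNNB1. Other genes are said to be chosen afterwards, and CDH1, KRT18, KRT19, PAX8 and EPCAM were added as epithelial markers. The lists for fibroblasts, leukocytes and endothelium, whose summed levels overlapped between groups, served as checks, as did that for kidney epithelium. Same-numbered arrays deviated together (correlations of 0.801, 0.53 and 0.572), and the replicate number was used as a block. On slide 2 arrays of different numbers deviated together at least as much (0.61 and 0.632), so the correlations show a shared slide and no pairing by number within slide 2. Alternatives were the replicate and slide blocks, slide 2 alone, normexp on the median signal (offset 50), quantile normalization, other filters, the methods' test, the authors' table, the mean of a gene's probes and each array left out. Symbols were matched to RefSeq (UU_Cfam_GSD_1.0) for names only, for 8 of the 9 members. Annotation of exons and UTRs was not used here, and 1 gene of the lists is not reported here by name.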

Additional observations from a re-analysis of the deposited data

How the results depend on the processing

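Of the values given for single member probes, 234 kept their direction and side of the threshold under an alternative, 17 reversed and 5 passed the threshold where the fit without a block did not. With the replicate block, limma called 1408 probes over the whole array, 1 member probe (TEAD4), 2 genes of the Hippo kinase list (STK4 and DLG5) and 1 of the other YAP targets (NUAK2), where the fit without it called 232, 0, 0 and 0. The slide block gave 1923, 1, 2 and 1, with the same genes. A replicate block with mix culture replicates 2 and 3 exchanged, chosen after seeing the data, gave 1459, 1, 2 and 1. The authors' table, whose centring the fit does not count so that its p-values are too small, gave 4078, 2 (TEAD4 and WWTR1), 2 and 1, with 1 call among the other TEADs and regulators. Slide 2 alone gave 986 probes, 0 member probes and NUAK2. The share of calls that were higher was 214 of 232 without a block, 1063 of 1923 with the slide block and 1948 of 4078 in the table. Over the whole array, normexp gave 101, the filter on all 6 arrays 142 and the methods' test 8. Leaving out 1 array gave 86 to 244, with 94 without single culture replicate 3, 92 without mix culture replicate 2 and 86 without mix culture replicate 3. The SRF list had 0 calls under every alternative, and with the mean of a gene's probes all 4 lists had 0. The change of 1 LATS1 probe (A_11_P0000020248) reversed to -0.014 under normexp, and that of 1 CYR61 probe (A_11_P0000024894) reversed to 0.107 under quantile normalization and in the authors' table. Leaving out 1 array also reversed signs. The 2 YAP1 probes ranged from -0.032 to 0.375 (A_11_P106351) and from -0.05 to 0.347 (A_11_P0000041017), the LATS1 probe from -0.089 to 0.432, the CYR61 probes from -0.455 to 0.445 (A_11_P0000024894) and from -0.104 to 0.855 (A_11_P098191), and the LATS2 probe A_11_P211783 from -0.163 to 0.068. For the TEAD4 probe A_11_P0000030468 the range was -0.77 to -0.29. The causes were not tested.

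With 3 arrays a group over 2 slides, SEs of 0.14 to 0.55 without a block limit what could be seen, and a miss of the threshold does not show that a gene was alike in both cultures. The signal over background set the limit for CTGF and ANKRD1, of which no probe was well above background on all 6 arrays.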
